A study of Mus musculus with 6 samples.

Results

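The genes described here are the replication-dependent histone genes of the mouse, chosen by symbol alone: every row of the gene table whose symbol belongs to the *H1f1* to *H1f5* linker histones or to the numbered H2ac, H2bc, H3c and H4c series. This rule used no expression value and found 51 genes among the 19446 genes of the table. They were 5 H1, 12 H2A, 10 H2B, 11 H3 and 13 H4 genes. The annotation placed 43 of them on chromosome 13, 6 on chromosome 3 and 1 each on chromosomes 11 and 6. Of the 51 genes, 35 had at least 10 reads in at least 2 libraries and were tested (5 H1, 8 H2A, 6 H2B, 7 H3 and 9 H4 genes), among 15948 tested genes in all. The 16 untested genes had 10 to 42 reads in total over the 6 libraries.

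The reads came from cardiac fibroblasts (CFs) cultured from hearts of 5-week-old mice, with 3 libraries from wild type (WT) mice and 3 from CharmeKO mice, in which a PolyA signal had been inserted into the locus of *Charme*, a long non-coding RNA of the heart. Both genotypes were C57BL/6J. The study's methods describe explant cultures of atrial tissue collected from 6 littermates aged 4 to 6 weeks, without saying whether the tissue was pooled. The cultures were grown for 2 weeks on fibronectin in medium with serum. No other treatment was labelled. The libraries were made from poly(A)-selected RNA and held 38330019 to 46797446 reads assigned to genes. The labels number the libraries 1 to 3 in each genotype without saying whether they came from separate cultures or animals. The study describes its replicates in general as independent primary isolations, and if any of these libraries were not, p-values would measure technical spread. Libraries of the same number resembled each other, and a pair below means a WT and a CharmeKO library of the same number. A row taken as *Charme*, by inference from its non-Ensembl name CUFF405, was covered by 5, 15 and 11 reads in the WT libraries and by 0, 6 and 3 in the CharmeKO libraries. All 12 listed cardiac fibroblast markers were detected and summed to 25537 to 54197 CPM (reads of the genes relative to the library total) in WT and 33673 to 44683 in CharmeKO. The cardiomyocyte markers *Myh6*, *Myh7*, *Myl7* and *Nppa* were not rows of the table, and the 4 other cardiomyocyte markers summed to 3.30 to 18.6 CPM.

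Core histones H2A, H2B, H3 and H4 form the nucleosome around which DNA is wrapped, and linker histone H1 binds where DNA enters and leaves it. Most of their genes lie in clusters and are transcribed in S phase, when DNA is copied and new nucleosomes are assembled. Their mRNAs are the known exception to polyadenylation: they end shortly after a conserved stem-loop that is bound by the stem-loop binding protein SLBP, and they are degraded when DNA synthesis stops. Some of these genes can also give longer, polyadenylated transcripts, for example in differentiated cells. A library made from poly(A)-selected RNA therefore does not measure the stem-loop-ended mRNAs directly.

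The stem-loops are shown because they define how these mRNAs normally end. A 16-base hairpin that starts with GG, with a 6-base stem, a 4-base loop and TT as the first loop bases, was found in annotated transcripts of 34 of the 51 genes (66.7%) and of 130 of 21901 protein-coding genes (0.594%). In the lines below the stem is in capitals, the loop and up to 5 bases on either side are in lower case, and the sequences are the GENCODE vM21 transcripts (build GRCm38) of the named genes that hold one.
H1f2: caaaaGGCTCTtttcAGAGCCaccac
H1f3: caaacGGCTCTtttcAGAGCCaccca
H2bc6: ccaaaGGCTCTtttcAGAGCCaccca
H2bc8: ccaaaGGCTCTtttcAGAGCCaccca
H2bc11: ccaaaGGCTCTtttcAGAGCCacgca
H3c4: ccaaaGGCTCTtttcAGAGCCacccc
H3c15: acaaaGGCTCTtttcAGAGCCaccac
H4c4: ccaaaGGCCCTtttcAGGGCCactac
H4c8: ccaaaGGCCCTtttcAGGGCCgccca
H4c9: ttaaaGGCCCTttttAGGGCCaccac
H4c17: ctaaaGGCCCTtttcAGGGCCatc
The H1, H2A, H2B and H3 genes shared the stem GGCTCT, and 18 of them had the same 16 bases. The stem GGCCCT belonged to H4 genes alone among the 51 (9 genes), and the other hairpin forms were held by 5 H2B and H3 genes and by 2 H4 genes. The hairpin of *H1f2* lies at chr13:23739512-23739527 on the plus strand, that of *H2bc11* at chr13:22043638-22043653 on the plus strand and that of *H4c9* at chr13:22040966-22040981 on the minus strand. They are followed by 840, 23 and 330 annotated bases.

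The annotated transcripts differed in how far they run past the hairpin, from 3 bases in *H4c17* to 4884 bases in *H1f3*. The 18 genes whose transcript runs over 100 bases past the hairpin held 48199 of the 70784 reads of all 51 genes (68.1%). Of those 18, 8 had a poly(A) signal (AATAAA or ATTAAA) in the last 40 bases. The 16 genes that end within 100 bases of it held 2353 reads (3.32%), and 2 of them had such a signal. Another 17 genes had no hairpin in the annotated transcript. For 8 of these 17 the annotation holds the coding part alone, and they took 0.453% of the reads, whereas the remaining 9 took 28.1%, nearly all in *H2bc4*, whose annotated transcript is spliced. In the class that runs on, *H1f2* alone had 41994 reads, against a median of 210.5 reads. Among the genes that end near the hairpin the median was 84 reads and the highest total was 520. Per length, the class medians were 18.3 normalised reads per kb for the genes that run on and 27.3 for those that end near the hairpin. The medians per length thus had the opposite order to the medians of reads. The length includes the bases past the hairpin by which the classes were defined, which lowers the values per kb of the genes that run on.

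**Figure D1:**
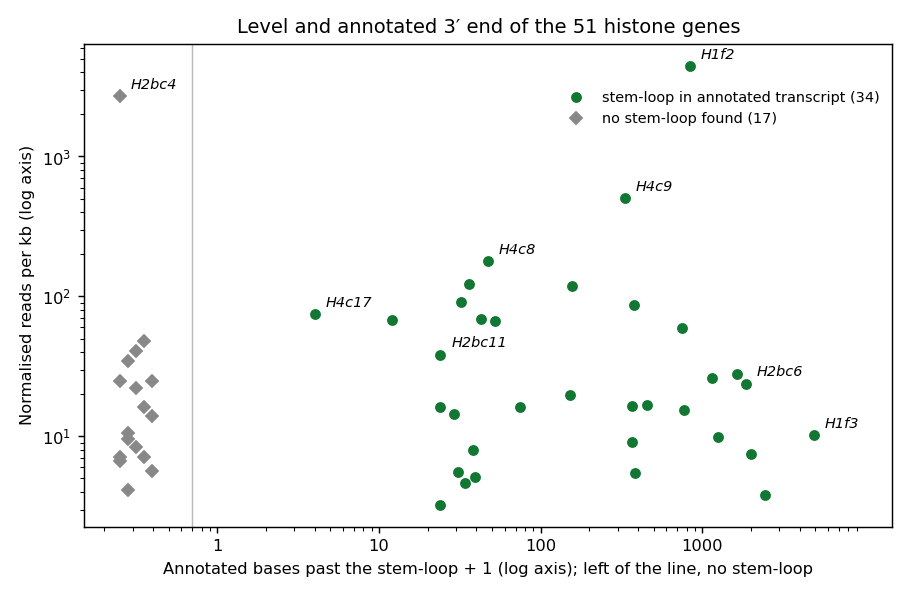
Normalised reads per kb, averaged over the 6 libraries (vertical log axis), against the number of annotated bases past the stem-loop plus 1 (horizontal log axis) for the 34 genes with a stem-loop, with the 17 genes without one at the left. *H1f2* and *H2bc4* stand highest at 4435 and 2693 reads per kb, *H4c9* is next at 502, and the other 48 genes lie between 3.24 and 179.

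The histone reads of these poly(A)-selected libraries were concentrated in a linker histone gene and a core histone gene. They do not give the share of each gene in all histone mRNA, since stem-loop-ended mRNAs were not measured directly. *H1f2*, a somatic H1 subtype, had the most reads of the 51 genes per length, at 4435 ± 1330 normalised reads per kb (SD over 6 libraries). *H2bc4*, an H2B gene, followed at 2693 ± 570. *H1f2* was above *H2bc4* per kb in every library, but the ratio ranged widely. It was 1.02, 2.67 and 1.27 in WT 1, 2 and 3 and 1.01, 2.75 and 1.85 in CharmeKO 1, 2 and 3, so in both libraries numbered 1 the genes were nearly level. *H4c9*, an H4 gene, came next at 502 ± 131 normalised reads per kb. Its 6 libraries ranged from 297 to 653, below every value of *H2bc4*, and overlapped at their lower end with *H4c8*, the next gene, which ranged from 98.5 to 342. *H4c8* (179 ± 91.8), *H2ac19* (122 ± 29.5) and *H2bc8* (119 ± 35.5) overlapped one another, and 38 of the 51 genes had a mean under 50 normalised reads per kb. Together *H1f2* and *H2bc4* held 85.0%, 90.4% and 80.9% of the histone reads in WT 1, 2 and 3 and 86.3%, 89.1% and 83.1% in CharmeKO 1, 2 and 3.

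Many histone genes closely resemble others of their family, and the authors counted only reads that mapped to a single place. Of the 51 genes, 22 had less than 50% of their 75-base windows unique among annotated transcripts, and the median was 58%. *H1f2* had 93.3% unique windows, *H2bc4* 72.9% and *H4c9* 77.6%, whereas *H4c17* had 11%, *H2ac12* 8.46% and *H2ac19* 0%. The values of all 22 genes under 50% are therefore uncertain. Those named below also include *H3c15* (37.4%), *H3c2* (41.4%), *H2ac4* (44.6%), *H4c18* (16.6%), *H2ac11* (22.4%), *H2ac22* (15.4%), *H2bc11* (49.6%), *H2bc12* (27.4%) and *H2bc15* (27.7%). *H2bc6* and the H1 gene *H1f4* overlap in exons on the same strand, as do *H2ac25* and *Trim17*, and reads in the shared part cannot be assigned to either.

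H2A and H2B genes often lie head to head and share the stretch between their starts. There were 7 such pairs with both genes in the table, with gaps of 175 to 301 bases, and in 5 of them the H2B gene had more reads per kb. These 5 include 2 with few reads and small ratios. *H2ac15* and *H2bc15* had 20 and 32 reads (1.66-fold per kb), and *H2ac22* and *H2bc22* had 10 and 22 (1.24-fold). The most unequal was *H2ac6* and *H2bc4*, 250 bases apart. *H2ac6* had 113 reads over the 6 libraries and *H2bc4* had 18945, which is 361-fold per kb in favour of *H2bc4*. The annotated exon lengths, 2482 bases for *H2ac6* and 1156 for *H2bc4*, enter this ratio. *H2ac11* and *H2bc11*, 269 bases apart, had 10 and 106 reads, or 11.9-fold per kb in favour of *H2bc11*. In the opposite direction, *H2ac12* had 40 reads and *H2bc12* had 16, a ratio of 0.346 for the H2B over the H2A gene.

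The windows before these pairs are shown because the partner genes share them, although their reads differ. Each is the RefSeq window (build GRCm38.p6) from 250 bases before to 50 bases after the start, read 5′ to 3′ on the strand of the named gene, with the motifs CCAAT and TATAAA and the octamer ATTTGCAT in capitals on either strand. No 2 of these motifs overlap in either window.
H2ac6: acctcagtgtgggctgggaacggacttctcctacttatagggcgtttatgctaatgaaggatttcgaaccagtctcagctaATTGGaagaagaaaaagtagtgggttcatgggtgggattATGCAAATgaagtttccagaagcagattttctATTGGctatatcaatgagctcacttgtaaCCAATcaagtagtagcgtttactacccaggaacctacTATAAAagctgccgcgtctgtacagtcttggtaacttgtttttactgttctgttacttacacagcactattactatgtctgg
H2bc11: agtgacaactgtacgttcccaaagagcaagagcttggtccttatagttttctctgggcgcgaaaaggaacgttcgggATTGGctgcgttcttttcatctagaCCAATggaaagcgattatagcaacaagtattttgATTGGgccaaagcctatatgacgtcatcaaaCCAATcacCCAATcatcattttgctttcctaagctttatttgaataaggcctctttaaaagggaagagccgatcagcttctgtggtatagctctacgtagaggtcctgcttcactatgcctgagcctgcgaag
The *H2ac6* window lies at chr13:23683910-23684209 on the minus strand and held 3 CCAAT matches, 1 octamer and 1 TATAAA. The *H2bc11* window lies at chr13:22042948-22043247 on the plus strand and held 5 CCAAT matches. Of the 51 genes, 44 had a window in the RefSeq table. CCAAT was in 36 of them (81.8%) and in 37.9% of all 27025 windows, TATAAA in 29 (65.9%) and in 14.2% of all windows, and the octamer in 7 (15.9%) and in 1.75% of all windows. The 7 octamer matches were 4 H2A and 3 H2B genes. CCAAT was in every H1, H2A, H2B and H3 window but in 3 of 11 H4 windows. Windows of head-to-head partners overlap, so these counts are not independent, and a match describes letters, not binding.

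The comparison of genotypes addresses whether loss of *Charme* goes with other transcript levels in cultured CFs. No replication-dependent histone gene passed the test. With limma, 0 of the 35 tested histone genes and 0 of 15948 genes (0%) reached an adjusted p under 0.05. Unadjusted p was under 0.05 in 0 histone genes and in 143 genes (0.897%). edgeR also called 0 genes, with 0 histone genes among the 158 (0.991%) under an unadjusted 0.05. DESeq2 called 8 genes (0.0504%), none of them a histone gene, and had 1 histone gene, *H2bc11*, under an unadjusted 0.05 against 1.8% of genes. With the replicate number as a block, DESeq2 called 64 of 15020 genes (0.426%) and 0 of the 29 histone genes to which it gave an adjusted p. In sign, 18 histone genes had a positive log2 difference (CharmeKO minus WT, on the log2 of normalised reads plus 1) and 17 a negative one, against 50.4% positive among all genes. This split rested on single libraries, with 24 positive and 11 negative without WT 3, and 14 positive and 21 negative without WT 1 or without CharmeKO 3. Their median log2 difference was 0.03, beside 0.0022 for all genes tested. A log2 difference of at least 1 in either direction was reached by 2 histone genes (*H2bc11* and *H2ac12*), or 5.71%, near the 5.04% of all genes. In bulk RNA, fewer cells of a type and less RNA per cell cannot be told apart.

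By family, the median log2 difference was -0.05 for H1, 0.07 for H2A, -0.06 for H2B, 0.04 for H3 and 0.21 for H4 genes. A positive value was seen in 1 of 5 H1 genes, 4 of 8 H2A genes, 3 of 6 H2B genes, 4 of 7 H3 genes and 6 of 9 H4 genes. Summed over all 51 genes, the level was 237, 334 and 227 CPM in WT 1, 2 and 3 and 267, 329 and 298 in CharmeKO 1, 2 and 3. The groups overlapped, at 266 ± 59.4 for WT and 298 ± 30.8 for CharmeKO (SD, n = 3 each). Without *H1f2* and *H2bc4*, the other 49 genes summed to 35.4, 32.2 and 43.4 CPM in WT and 36.5, 35.7 and 50.4 in CharmeKO, which also overlapped.

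**Figure D2:**
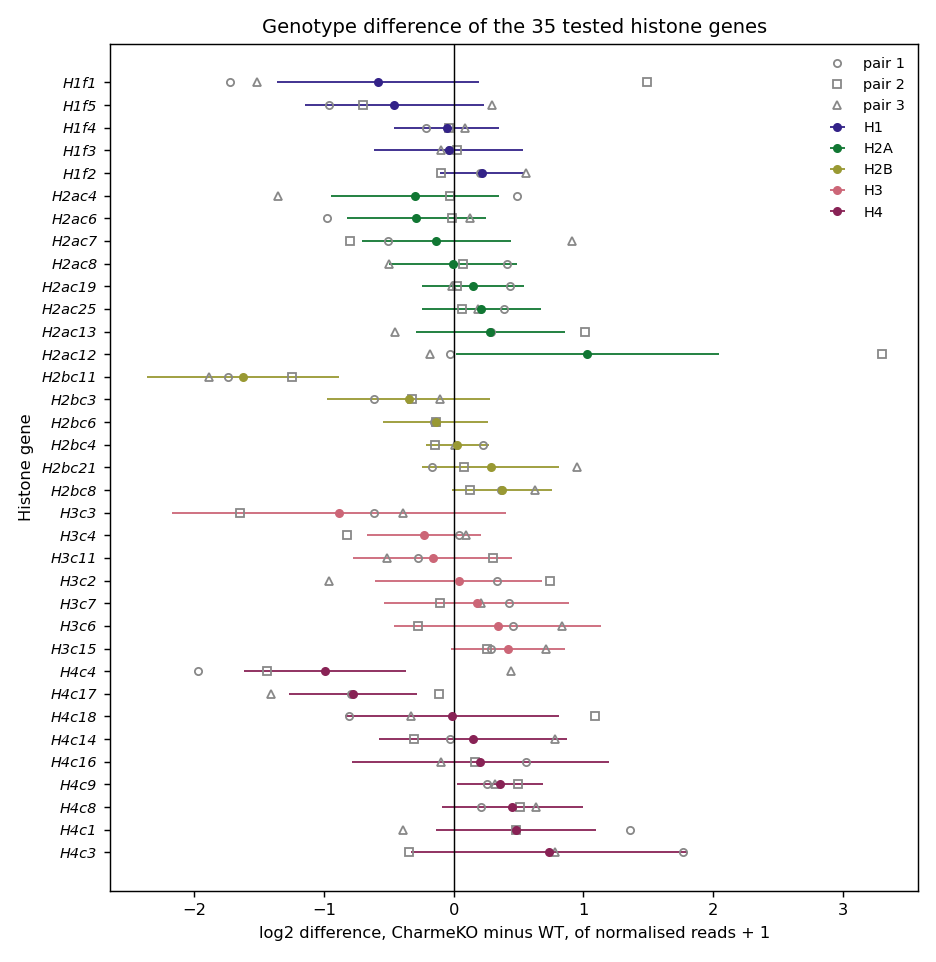
The log2 difference of each of the 35 tested histone genes (filled points, with bars of 1 SE from limma, coloured by family) and the differences within the 3 same-numbered pairs (open symbols). Points lie on both sides of 0 in every family, *H2bc11* is farthest to the left at -1.62, and the value of *H2ac12* at 1.03 comes from pair 2 alone, where the WT library had 0 reads.

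Among the linker histones, *H1f2* had 4969, 9682 and 4901 normalised reads in WT 1, 2 and 3 and 5717, 9042 and 7198 in CharmeKO 1, 2 and 3. Both libraries numbered 2 were the highest, the genotypes overlapped, and the log2 difference was 0.22 (SE 0.323, limma adjusted p = 0.9999, the value of every histone gene tested). *H1f3*, another somatic H1 subtype, had 40.4, 113 and 74.7 normalised reads in WT and 39.4, 115 and 69.6 in CharmeKO. Its values matched almost library by library across genotypes, from the lowest in number 1 to the highest in number 2, and the log2 difference was -0.04 (SE 0.575).

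Among the H2B genes, *H2bc4* had 3597, 2690 and 2868 normalised reads in WT and 4201, 2434 and 2884 in CharmeKO. Both libraries numbered 1 were the highest, and the log2 difference was 0.03 (SE 0.244). *H2bc6* had 88.6, 90.8 and 154 normalised reads in WT and 79.8, 82.6 and 140 in CharmeKO. It was a little lower in CharmeKO within each pair, by a log2 difference of -0.13 to -0.15, while the libraries numbered 3 stood well above the others, so the groups overlapped. *H2bc8* had 57.1, 57.7 and 74.7 normalised reads in WT and 74.0, 62.9 and 116 in CharmeKO. It was higher in CharmeKO in all 3 pairs, and the groups overlapped, with a log2 difference of 0.37 (SE 0.388). *H2bc21* had 54.2, 95.0 and 82.4 normalised reads in WT and 48.1, 100.3 and 160.0 in CharmeKO, with pairs of both signs.

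*H2bc11* had the lowest p of the 35 histone genes. It had 47.3, 10.7 and 25.3 normalised reads in WT 1, 2 and 3 and 13.5, 3.93 and 6.09 in CharmeKO 1, 2 and 3, from 48, 10 and 23 reads and 14, 4 and 7 reads. It was lower in CharmeKO in each pair, by log2 differences of -1.74, -1.24 and -1.89, although the lowest WT library lay below the highest CharmeKO library. The log2 difference was -1.62 (SE 0.742, limma adjusted p = 0.9999). With the replicate number as a block the unadjusted p was 0.013, as 5.37% of all genes were then under 0.05, and the adjusted p was 0.7997. Of its 75-base windows, 49.6% were unique. For the partner *H2ac11*, WT gave 3, 0 and 0 reads and CharmeKO 3, 1 and 3, too few to compare.

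Among the H3 genes, *H3c15* had 101, 53.4 and 72.5 normalised reads in WT and 124, 63.9 and 119 in CharmeKO. It was higher in CharmeKO in each pair, with a log2 difference of 0.42 (SE 0.437), and the groups overlapped. *H3c4* had 74.8, 70.5 and 90.1 normalised reads in WT and 76.9, 39.3 and 96.5 in CharmeKO. CharmeKO 2 alone was low, and the log2 difference was -0.23 (SE 0.443).

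Among the H4 genes, *H4c9* had 397, 216 and 356 normalised reads in WT and 475, 304 and 444 in CharmeKO. It was higher in CharmeKO in each pair, with both libraries numbered 2 the lowest, and the log2 difference was 0.36 (SE 0.329). *H4c8* had 46.3, 57.7 and 103 normalised reads in WT and 53.8, 82.6 and 161 in CharmeKO. It too was higher in each pair, with a log2 difference of 0.45 (SE 0.542), or 0.034 without CharmeKO 3, and the libraries numbered 3 were the highest. *H4c17* was the only histone gene in which the genotypes did not overlap, at 37.4, 22.4 and 57.1 normalised reads in WT and 21.2, 20.6 and 20.9 in CharmeKO. Its reads before scaling were 38, 21 and 52 in WT and 22, 21 and 24 in CharmeKO, where WT 2 exceeded no CharmeKO library. Its log2 difference was -0.77 (SE 0.493). Among all genes, 1.98% were separated in this direction and 2.14% in the other, against 1 and 0 of the 35 histone genes. *H4c4* had 25.6, 31.0 and 13.2 normalised reads in WT and 5.77, 10.8 and 18.3 in CharmeKO, with pair 3 opposite to the other pairs.

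Among the H2A genes, none was among the 10 with most reads. *H2ac12* had 4.92, 0 and 10.99 normalised reads in WT and 4.81, 8.85 and 9.57 in CharmeKO. Its log2 difference of 1.03 (SE 1.01) rested on WT 2, where 0 reads allow up to 3, and the groups overlapped. Over all 35 tested genes, 5 were higher in CharmeKO in all 3 pairs (14.3%, against 16.4% of all genes) and 5 were lower in all 3 (14.3%, against 14% of all genes).

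**Figure D3:**
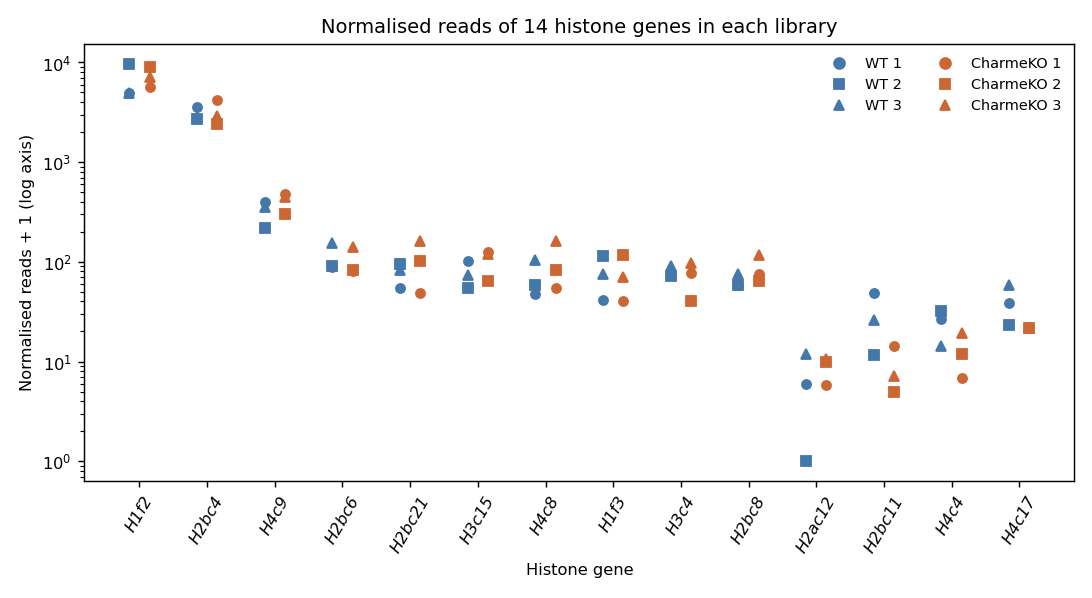
Normalised reads plus 1 (log axis) of the 14 named histone genes in each library, with WT in blue, CharmeKO in orange and the replicate number as the symbol. *H1f2* and *H2bc4* lie well above the rest, and symbols of the same number tend to lie at similar heights in both genotypes, as for *H1f3*.

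The libraries differed more by replicate number than by genotype. In 31 of the 35 histone genes (88.6%) the number took a larger share of the variance than the genotype, as in 88.9% of all genes, although the number has 2 degrees of freedom and the genotype 1. The median shares over the histone genes were 78.1% for the number and 7.71% for the genotype. The families did not follow the same order over the libraries. H1 genes summed to 120, 242 and 120 CPM in WT 1, 2 and 3 and 135, 236 and 181 in CharmeKO 1, 2 and 3, so both libraries numbered 2 stood above the other 4. Without *H1f2*, the remaining H1 genes summed to 2.66, 5.56 and 4.13 in WT and 2.04, 5.45 and 4.17 in CharmeKO, in which both libraries numbered 2 were again the highest.

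The sums of the 4 core histone families had both libraries numbered 2 the lowest, which for H2B and H4 rested on the gene with most reads. H2A genes summed to 6.07, 4.83 and 6.60 CPM in WT and 7.05, 5.00 and 7.14 in CharmeKO. H2B genes summed to 91.0, 72.5 and 76.5 in WT and 103, 69.0 and 81.8 in CharmeKO. H3 genes summed to 6.46, 4.93 and 7.64 CPM in WT and 7.11, 5.10 and 8.36 in CharmeKO. H4 genes summed to 13.8, 10.1 and 16.3 in WT and 14.8, 13.4 and 19.8 in CharmeKO. The place of number 2 in these 5 family sums was the same with the deposited normalised reads in place of CPM. Without the gene with most reads of each family, which was left out after the values had been seen, number 2 stayed lowest for H2A and H3 but not for H2B and H4. Without *H2ac19* the H2A genes summed to 4.45, 3.57 and 5.17 CPM in WT and 4.88, 3.67 and 5.66 in CharmeKO, and without *H3c15* the H3 genes summed to 4.08, 3.63 and 5.92 in WT and 4.23, 3.47 and 5.43 in CharmeKO. Without *H2bc4* the H2B genes summed to 6.42, 6.76 and 8.68 in WT and 5.50, 6.78 and 10.98 in CharmeKO. Without *H4c9* the H4 genes summed to 4.49, 4.85 and 7.90 in WT and 3.74, 5.60 and 8.87 in CharmeKO. In both of these sums the libraries numbered 1 were the lowest of each genotype and those numbered 3 the highest.

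Gene by gene, both libraries numbered 2 lay below the other 4 in 11 of the 35 histone genes (31.4%, against 18.4% of all genes) and above them in 3 (8.57%, against 16.1%). The 3 above were *H1f2*, *H1f3* and *H1f5*. The 11 below were core histone genes: *H2ac4*, *H2ac19*, *H2ac25*, *H2bc4*, *H3c2*, *H3c3*, *H3c4*, *H3c7*, *H3c15*, *H4c9* and *H4c18*. Both libraries numbered 3 lay above the others in 11 histone genes (31.4%, against 9.02% of all genes) and below them in 0 (against 9.07%). Both libraries numbered 1 lay above the others in 2 (5.71%, against 23.6%) and below them in 9 (25.7%, against 21.8%). These counts describe 6 libraries, carry no test, and the genes share reads and neighbours.

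Lists of cell cycle genes were also lowest in the libraries numbered 2. A list of 31 S phase genes summed to 973, 528 and 926 CPM in WT and 965, 626 and 933 in CharmeKO. A list of 18 G2/M genes summed to 590, 243 and 787 in WT and 611, 219 and 769 in CharmeKO. Both libraries numbered 2 lay below the other 4 in 27 of the 31 S phase genes and in all 18 G2/M genes. *Mki67*, a marker of cycling cells, had 3994, 1478 and 5916 normalised reads in WT and 3832, 1213 and 5930 in CharmeKO. *Pcna*, the sliding clamp of DNA polymerase, had 2441, 1241 and 1935 normalised reads in WT and 2083, 1128 and 2191 in CharmeKO. Between genotypes, 0 genes of either list passed the test, with 15 S phase genes positive and 16 negative, and 6 G2/M genes positive and 12 negative. Of the S phase genes, the ribonucleotide reductase subunit *Rrm1* and the helicase subunit *Mcm6* had the lowest p, with log2 differences of 0.33 (SE 0.338) and -0.16 (SE 0.268). Of the G2/M genes, these were the mitotic kinesins *Cenpe* and *Kif20a*, with log2 differences of -0.40 (SE 0.627) and 0.27 (SE 0.628). *Cenpe* was lower and *Kif20a* higher in CharmeKO in each pair. With the replicate number as a block, their unadjusted limma p was 0.042 and 0.036, and both had an adjusted p of 0.7997. The unadjusted p with the block was under 0.05 in 2 of the 18 G2/M genes, 0 of the 31 S phase genes and 5.37% of all genes.

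**Figure D4:**
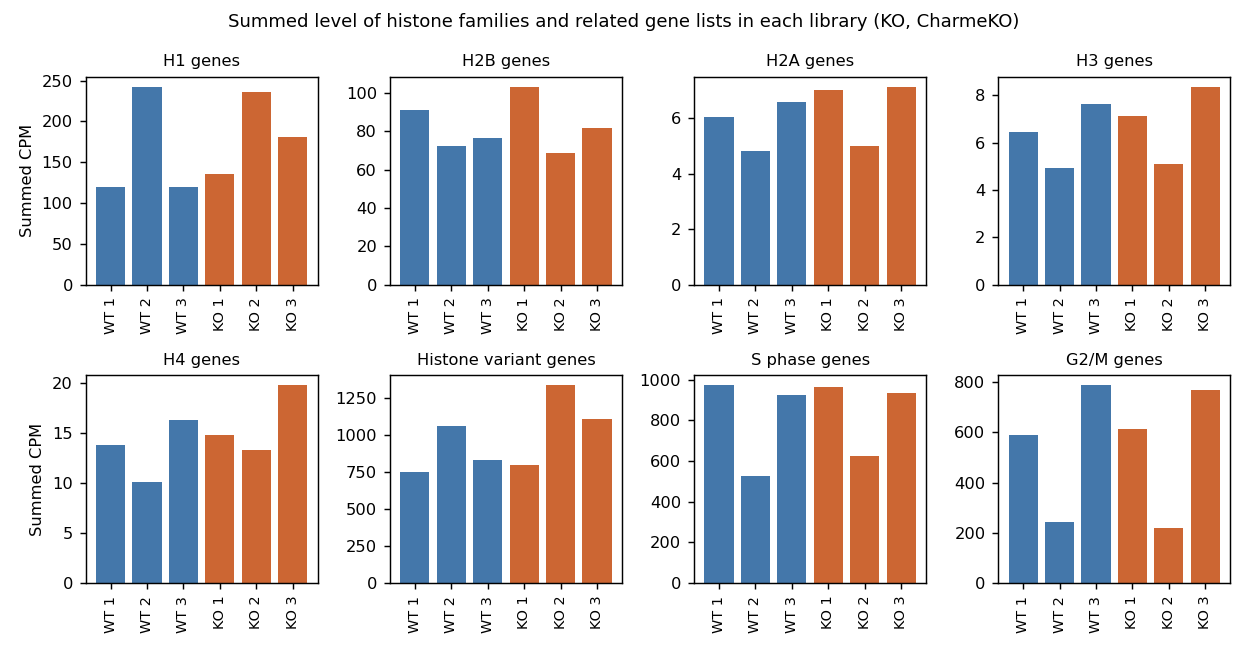
Summed CPM in each library (bars from 0, WT in blue and CharmeKO, written KO, in orange) for the 5 histone families, the histone variant genes, the S phase genes and the G2/M genes. The H1 bars are highest in WT 2 and KO 2, at 242 and 236, where the H2A, H2B, H3, H4, S phase and G2/M bars are lowest.

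Replication-independent histone variants can be used outside S phase, and most of their genes give ordinary polyadenylated mRNAs. As a list they were measured at higher totals than the 51 genes. The 11 variant genes found in the table of the 18 listed summed to 750, 1061 and 831 CPM in WT and 801, 1338 and 1109 in CharmeKO, with number 2 the highest in each genotype. All 11 had a positive log2 difference (50.4% positive among all genes), with a median of 0.10. Of the 11, 4 were higher in all 3 pairs (against 16.4% of all genes), but 0 passed the test. With the replicate number as a block, the unadjusted limma p was under 0.05 in 2 of the 11, against 5.37% of all genes. These were *H2az2* and *H3f3a*, and with the block 0 of the 11 passed after adjustment. *H3f3a* had 5467, 7856 and 5617 normalised reads in WT and 6445, 8842 and 7669 in CharmeKO. *H3f3b*, which encodes the same H3.3 protein, had 10990, 18027 and 10967 normalised reads in WT and 11101, 23837 and 19252 in CharmeKO. Both H3.3 genes were higher in each pair, with overlapping groups and log2 differences of 0.29 (SE 0.215) and 0.41 (SE 0.352).

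*H2az2* and *H2az1* encode H2A.Z, which replaces H2A at promoters, and *H2ax* encodes the variant phosphorylated at DNA breaks. *H2az2* had 479, 919 and 643 normalised reads in WT and 702, 1072 and 1006 in CharmeKO, with the lowest p of the list and a log2 difference of 0.47 (SE 0.303). *H2az1* had 2577, 1583 and 3098 normalised reads in WT and 2844, 1860 and 2955 in CharmeKO. *H2ax* had 1815, 1067 and 1874 normalised reads in WT and 1791, 1413 and 2067 in CharmeKO. *H2az1* and *H2ax* were thus lowest in the libraries numbered 2, unlike *H2az2*, *H3f3a* and *H3f3b*, which had their highest value of each genotype there.

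Of the genes that make or handle histone mRNA and protein, 0 passed the test between genotypes. Of 24 histone mRNA biogenesis genes, 12 had a positive and 12 a negative log2 difference, with 0 called. *Slbp*, which binds the stem-loop, had 796, 729 and 989 normalised reads in WT and 821, 808 and 1091 in CharmeKO. *Npat*, which activates histone transcription in S phase, had 1283, 1318 and 1373 normalised reads in WT and 1120, 1241 and 1357 in CharmeKO. *Slbp* was higher and *Npat* lower within each pair, with overlapping groups and log2 differences of 0.11 (SE 0.214) and -0.10 (SE 0.156). The lowest p of this list belonged to *Lsm11*, a component of the U7 particle that processes histone mRNA, at 463, 443 and 821 normalised reads in WT and 411, 398 and 377 in CharmeKO, with a log2 difference of -0.48 (SE 0.289). All 3 CharmeKO libraries of *Lsm11* lay below the WT libraries, as in 1.98% of all genes and in 1 of the 24 genes of this list. Its log2 differences were -0.17, -0.15 and -1.12 in pairs 1, 2 and 3, so pair 3 gave most of the difference. *E2f1*, a transcription factor of the G1 to S transition, had a log2 difference of -0.25 (SE 0.155). Of 20 histone chaperones, 14 had a positive and 6 a negative log2 difference (50.4% positive among all genes), with a median of 0.03 and 0 called. *Atrx* and *Ubn1*, which act in H3.3 deposition, had the lowest p of the list, with log2 differences of -0.21 (SE 0.298) and 0.09 (SE 0.170).

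Markers of other cells also varied by library, and their part in the histone values was not tested. All 10 macrophage and leukocyte markers were in the table and summed to 40.8 to 200 CPM in WT and 18.1 to 426 in CharmeKO, led by *Lyz2*. *Fcgr1* and *Ptprc* had the lowest p of these, with log2 differences of 1.38 (SE 1.67) and -1.31 (SE 2.00). Of 7 endothelial markers, *Cldn5* and *Emcn* were not rows of the table, and the other 5 summed to 1.00 to 8.14 CPM. *Kdr* and *Tek* had log2 differences of -0.83 (SE 0.475) and -1.24 (SE 1.53). All 8 smooth muscle and pericyte markers were in the table, with sums of 605 to 4196 in WT and 227 to 2171 in CharmeKO. Every one of the 8 had a negative log2 difference, with a median of -1.75. In 6 of them its size was at least 1, against 5.04% of all genes. With limma 0 passed the test, while DESeq2 with the replicate block called 1 of the 8. *Cspg4*, at -3.56 (SE 1.05, unadjusted limma p under 0.05), and *Abcc9*, at -1.94 (SE 0.914), had the lowest limma p. Among the fibroblast markers, *Thy1* and *Ddr2* had log2 differences of -1.34 (SE 0.769) and -0.23 (SE 0.180), with 6 of the 12 positive. Among the cardiomyocyte markers, *Actn2* and *Tnnt2* had log2 differences of -0.47 (SE 1.46) and 0.24 (SE 1.01).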

How the data were processed

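The 51 genes and the gene lists were chosen with earlier results of these data known. Per the labels and the study's methods, the authors aligned strand-specific reads with STAR, counted uniquely mapped reads per gene, filtered out low genes and scaled the counts by DESeq2 size factors. What the authors deposited is thus a scaled read signal rather than raw counts. Here 100% of 116676 values were whole multiples of a library's unit, so the read counts were recovered. Totals were 43168672, 38330019 and 38498183 reads in WT 1 to 3 and 44709206, 39823822 and 46797446 in CharmeKO 1 to 3. A count of 0 allows up to 3 reads, which covers counting error only.

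The main test was limma 3.58.1 (R 4.3.3) with a trended prior variance on log2(value + 1), which understates differences of low genes, with genotype as the only term, two-sided, over 15948 genes in which 2 or more libraries had 10 or more reads. Adjustment was after Benjamini and Hochberg with a threshold of 0.05. Every SE given is from this fit, without the replicate block, and so includes the spread between replicate numbers. For *H4c9* the SE was 0.329, against 0.144 with the block, and for *H1f1* it was 0.780, against 0.828. edgeR 4.0.16 and DESeq2 1.42.0 on recovered reads, a pseudocount of 5, other filters and scalings, a replicate block and leaving out each library were alternatives. Scripts were tested on simulated data. Named histone genes are the 10 with the highest mean, the 3 with the lowest p in each direction and those without overlap between genotypes. From each list the 2 genes with the lowest p and *Slbp*, *Npat*, *Pcna*, *Mki67*, *H2az1*, *H2ax*, *H3f3a* and *H3f3b* are given. Other genes named by a pattern over replicate numbers, by a head-to-head pair or by overlap were named after their values were seen.

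Replicate numbers came from the sample titles. Deviations from group means of same-numbered libraries correlated across all genes, which are not independent replicates, with r = 0.762, 0.514 and 0.217, each over the minimum of 0.1 set for pairing, so the numbers were taken to pair the libraries. Differently numbered libraries gave r from -0.643 to 0.222. WT 2 with CharmeKO 3 had that last value, above pair 3, which is the least certain.

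Stem-loops, lengths and windows came from GENCODE vM21 and RefSeq tables on GRCm38. The submitters' processing notes name GRCm39, and the deposited values carry no coordinates, so coordinates are those of the reference and not of the authors' alignment. Python 3.11.15 with matplotlib 3.10.9 drew the plots.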

Additional observations from a re-analysis of the deposited data

How the results depend on the processing

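No setting called a histone gene: the count stayed at 0 under edgeR, DESeq2, a pseudocount of 5, no filter, at least 50 reads in at least 3 libraries, both other scalings, the replicate block and leaving out each library. Over all genes the count was 0 except with DESeq2, at 8, and with DESeq2 and the replicate block, at 64. In that last fit 1 gene of the lists was called, a smooth muscle and pericyte marker, and the block called no other histone or list gene. The tests of the lists were run with edgeR, DESeq2, the block and each library left out, but not with other filters, pseudocounts or scalings. The median log2 difference of the histone genes was 0.03, with 0.02 to 0.18 under the settings that kept all libraries, and -0.22 (without WT 1) to 0.20 (without CharmeKO 2) when a library was left out. Leaving out a library turned the sign of 5 named genes, none of which passed the test: the log2 difference ranged from -0.19 to 0.20 for *H2bc4*, -0.40 to 0.12 for *H2bc6*, -0.11 to 0.75 for *H2bc21*, -0.43 to 0.35 for *H1f3* and -0.50 to 0.14 for *H3c4*. The other 9 kept their sign over ranges of 0.05 to 0.54 for *H1f2*, 0.09 to 0.56 for *H4c9*, 0.19 to 0.72 for *H3c15*, 0.03 to 0.81 for *H4c8*, 0.12 to 0.56 for *H2bc8*, 0.0048 to 1.80 for *H2ac12*, -2.16 to -1.14 for *H2bc11*, -1.36 to -0.60 for *H4c4* and -1.11 to -0.45 for *H4c17*. At 50 reads in 3 libraries *H2ac12*, *H2bc11*, *H4c4* and *H4c17* had no value. The summed level of the 51 genes, CharmeKO minus WT, was 31.9 CPM, 8.07 without *H1f2* and 12.3 to 66.0 with a library left out. Depth limits the genes with few reads, and 16 of the 51 could not be tested.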
